A study of Mus musculus with 50 samples.

Results

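Arhgap25 and Rasa3 encode GTPase-activating proteins, which switch small GTPases off by speeding the hydrolysis of bound GTP. Both genes were taken by name from a table of 12185 genes measured in mouse liver, and both were found in each of its 50 libraries. Arhgap25 (ENSMUSG00000030047) lies on the minus strand at chr6:87458545-87533259 and Rasa3 (ENSMUSG00000031453) on the minus strand at chr8:13566948-13677603, both in GRCm38. No other annotated gene overlapped either of them.

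The study crossed mice with substituted chromosomes to map loci that act on liver transcript levels. All 50 libraries came from total RNA of the liver of mice described as male and form 1 group, with no treatment or condition. The labels describe adult F2 animals in which A/J-derived chromosomes 4 and 6 segregate on an otherwise C57BL/6J background. The methods describe the same animals as N2 offspring of 2 kinds of F1 parent, 1 made from B6.A4 and 1 from B6.A6, each crossed to B6, killed at 5 weeks of age after an overnight fast, with RNA taken from the caudate lobe. Arhgap25 lies on segregating chromosome 6, Rasa3 lies on a chromosome that does not segregate, and genotypes were not used here. The titles give 48 distinct animal numbers, since libraries 8 and 10 share 1 number and libraries 22 and 55 share another. The methods state a number of mice that matches neither the libraries nor the animal numbers, and p-values below measure the spread between libraries.

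Arhgap25 acts on Rac and is known as a GTPase-activating protein of blood cells, where it restrains phagocytosis and leukocyte migration. Rasa3 acts on R-Ras and Rap1, holds integrins inactive in resting platelets, and is also used in the erythroid lineage and in endothelium. Blood cells, Kupffer cells (the resident macrophages), sinusoidal endothelium and stellate cells all contribute RNA to a piece of liver, next to the hepatocytes that make up most of it. The comparison made here asked which genes vary with each GTPase-activating gene over the 50 libraries, and whether they are immune-cell genes. In bulk tissue, fewer cells of a type and less RNA per cell cannot be told apart.

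The promoter windows of both genes are shown because a blood-cell gene of this kind is often read through ETS factors such as PU.1. Each window runs from 250 bases before to 50 bases after a RefSeq start on GRCm38.p6, 5′ to 3′ on the gene's strand, and the capitals mark the PU.1-type letters GAGGAA or their reverse complement TTCCTC.
Arhgap25 start at chr6:87496278-87496577: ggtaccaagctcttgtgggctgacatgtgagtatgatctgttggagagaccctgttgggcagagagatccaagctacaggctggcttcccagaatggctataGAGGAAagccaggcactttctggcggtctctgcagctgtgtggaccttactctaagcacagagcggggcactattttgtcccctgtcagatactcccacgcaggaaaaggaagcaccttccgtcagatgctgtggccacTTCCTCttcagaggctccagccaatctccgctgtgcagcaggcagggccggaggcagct
Arhgap25 start at chr6:87533210-87533509: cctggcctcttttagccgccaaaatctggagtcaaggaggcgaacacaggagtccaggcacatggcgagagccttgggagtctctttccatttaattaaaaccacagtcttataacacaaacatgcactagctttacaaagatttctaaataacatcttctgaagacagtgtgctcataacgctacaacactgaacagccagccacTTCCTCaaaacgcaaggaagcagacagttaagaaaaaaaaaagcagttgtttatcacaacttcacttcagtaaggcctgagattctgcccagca
Rasa3 start at chr8:13677538-13677837: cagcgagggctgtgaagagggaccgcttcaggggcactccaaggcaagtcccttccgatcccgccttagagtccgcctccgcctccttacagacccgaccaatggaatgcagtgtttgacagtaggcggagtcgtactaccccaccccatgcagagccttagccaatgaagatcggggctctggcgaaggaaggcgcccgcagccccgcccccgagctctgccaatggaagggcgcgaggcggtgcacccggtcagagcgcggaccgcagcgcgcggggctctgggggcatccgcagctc
The 2 Arhgap25 windows held 2 matches (1 on each strand) and 1 match (minus strand), and the Rasa3 window held 0. Of 32851 promoter windows of the same length, 28.3% held a match on either strand. Of the other letters searched on both strands, the Rasa3 window held 1 GC box (GGGCGG, in 35.7% of all windows), and no window of either gene held the GATA letters AGATAA (11.2%) or the TATA letters TATAAA (13.6%). The matches are a description of the letters and not of binding.

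Arhgap25 was measured at 2.31 ± 0.523 normalized CPM (reads scaled by library size; SD, n = 50). The lowest library, library 3, held 1.51, the median was 2.17, and the highest, library 56, held 3.85. Between 18 and 73 reads lay behind each of these values (median 34.5). Poisson counting error at this depth amounted to 57.2% of the variance of Arhgap25 over libraries, so that even a gene that followed it exactly could reach a correlation of no more than about 0.654. The 28 libraries numbered 1 to 30 averaged 2.33 ± 0.495 (SD, n = 28) and the 22 numbered 31 to 59 averaged 2.28 ± 0.567 (SD, n = 22), so the 2 sets overlapped throughout.

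Rasa3 was measured at 8.70 ± 1.74 normalized CPM (SD, n = 50). The lowest library, library 4, held 5.92, the median was 8.39, and the highest, library 46, held 13.5. Between the libraries the reads behind Rasa3 numbered at least 82, with 128.5 as the median, and counting error amounted to 19.6% of the variance of Rasa3, with 0.897 as the corresponding ceiling on a correlation. The 2 sets of libraries averaged 8.63 ± 1.72 (SD, n = 28) and 8.79 ± 1.80 (SD, n = 22) and overlapped as well. The coefficient of variation was 19.96% for Rasa3 and 22.7% for Arhgap25. Between the paired libraries of 1 animal number, Arhgap25 was 2.85 in library 8 and 2.13 in library 10, and Rasa3 was 9.87 and 9.05. In the other pair, Arhgap25 was 3.17 in library 22 and 2.97 in library 55, and Rasa3 was 8.64 and 8.43.

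**Figure D1:**
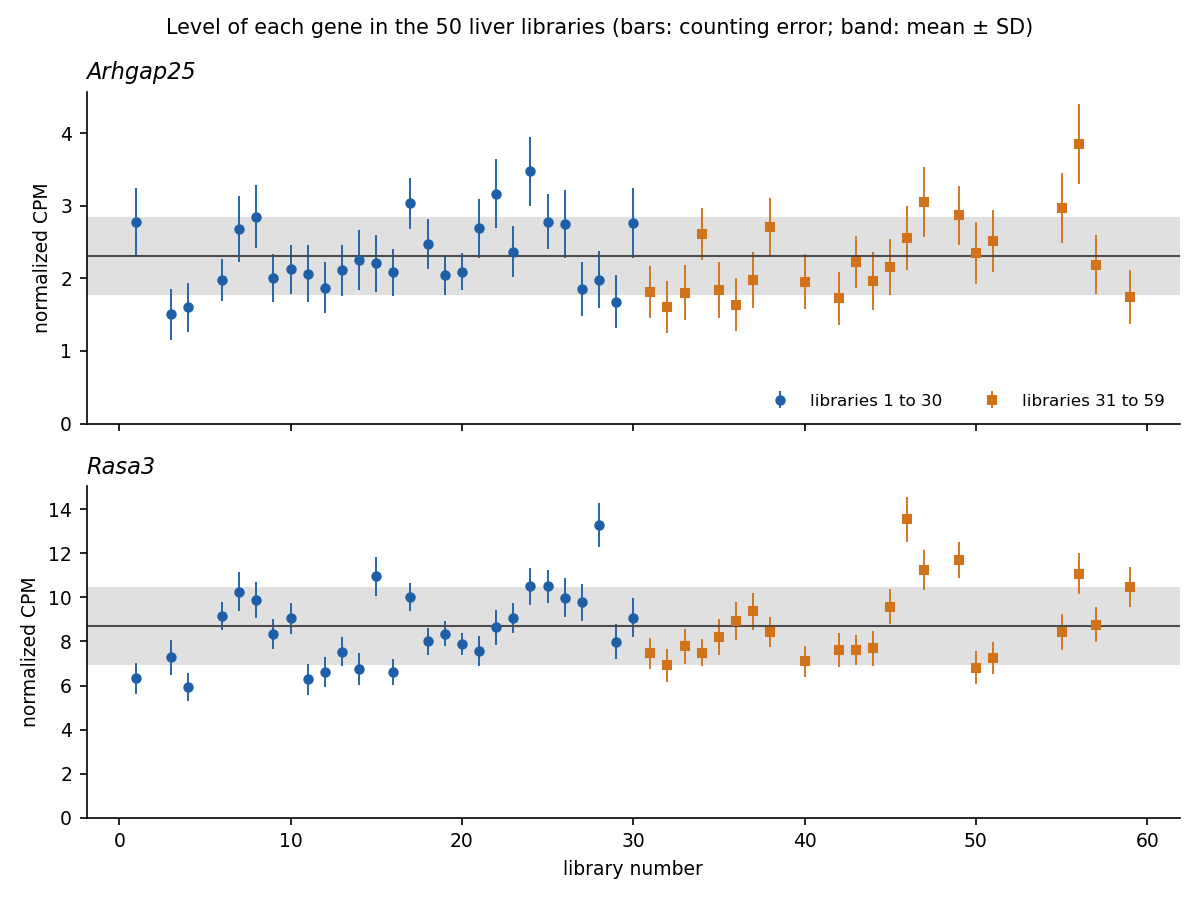
Level of Arhgap25 (top) and Rasa3 (bottom) in normalized CPM against library number, 1 point per library, with circles for libraries 1 to 30 and squares for libraries 31 to 59. Vertical bars are the Poisson counting error of each library, the line and band are the mean ± SD over 50 libraries, and the bars take up more of the spread for Arhgap25 than for Rasa3.

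Counted reads ran from 11965594 to 29976557 per library (median 13620584). Of 10 hepatocyte markers, all 10 were in the table, led by Alb (albumin) at 57040 to 94540 normalized CPM. Library 24 stood apart from the rest, with the lowest sum of male-biased liver genes (597 normalized CPM against a median of 2940) and the highest sum of female-biased genes (712 against a median of 97.6). It held 3.48 normalized CPM of Arhgap25, the second highest value, and 10.5 of Rasa3, and counts below are also given without it. The animal number in the titles rose with both genes, as 2 of 8 technical relations computed. For Arhgap25 it had r = 0.380 (permutation p = 0.00619, adjusted p = 0.0248) and rho = 0.380 (permutation p = 0.00612). For Rasa3 it had r = 0.450 (permutation p = 0.00112, adjusted p = 0.00896) and rho = 0.441 (permutation p = 0.00149). Within the 2 sets of libraries, r with the animal number was 0.289 and 0.472 for Arhgap25 and 0.488 and 0.447 for Rasa3, and without the 2 most distant libraries it was 0.413 and 0.405. What the animal number stands for is not given in the labels, and its part in the results below was not tested beyond the fits that hold it as a covariate. For counted reads, the share of the 10 highest genes and the library number, adjusted permutation p-values were 0.123 or more. The r with the library number was 0.143 for Arhgap25 and 0.283 for Rasa3 over all libraries. Within the 2 sets it was 0.255 and 0.509 for Arhgap25 and 0.484 and 0.423 for Rasa3. Inside each set the animal number rose almost in step with the library number, so these orders cannot be told apart there. A fit that holds the animal number as a covariate therefore does not separate it from the order of libraries within a set.

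Per kb of exons, Arhgap25 stood at 0.521 ± 0.118 normalized CPM (SD, n = 50) and ranked 32 among the 47 genes of the RhoGAP family in the table. The family was led by Arhgap35 (p190RhoGAP) at 8.99 ± 1.38. The nearest genes in the order were Syde1 at 0.575 ± 0.143, which exceeded Arhgap25 in 29 of 50 libraries, and Arhgap9, a RhoGAP of blood cells, at 0.501 ± 0.131, which exceeded it in 23. These neighbours did not differ from Arhgap25 beyond their spread. Among other RhoGAP genes known from blood cells, Arhgap45 stood higher at 1.70 ± 0.314 in 50 of 50 libraries, Arhgap30 stood at 0.470 ± 0.0899, Arhgap4 at 0.360 ± 0.0933, and Arhgap15 was the lowest of the family at 0.0713 ± 0.0280.

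Rasa3 ranked 3 among the 10 genes of the RasGAP family in the table, at 1.71 ± 0.341 normalized CPM per kb (SD, n = 50). The scaffold gene Iqgap2 was far higher at 36.3 ± 4.58. Rasa1 (p120RasGAP) stood at 2.09 ± 0.244 and exceeded Rasa3 in 43 of 50 libraries. Dab2ip stood at 1.23 ± 0.219 and exceeded Rasa3 in 3 libraries, and Nf1 (neurofibromin) stood at 0.931 ± 0.188 and exceeded it in 1. Per kb, Rasa3 was above Arhgap25 in 50 of 50 libraries.

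**Figure D2:**
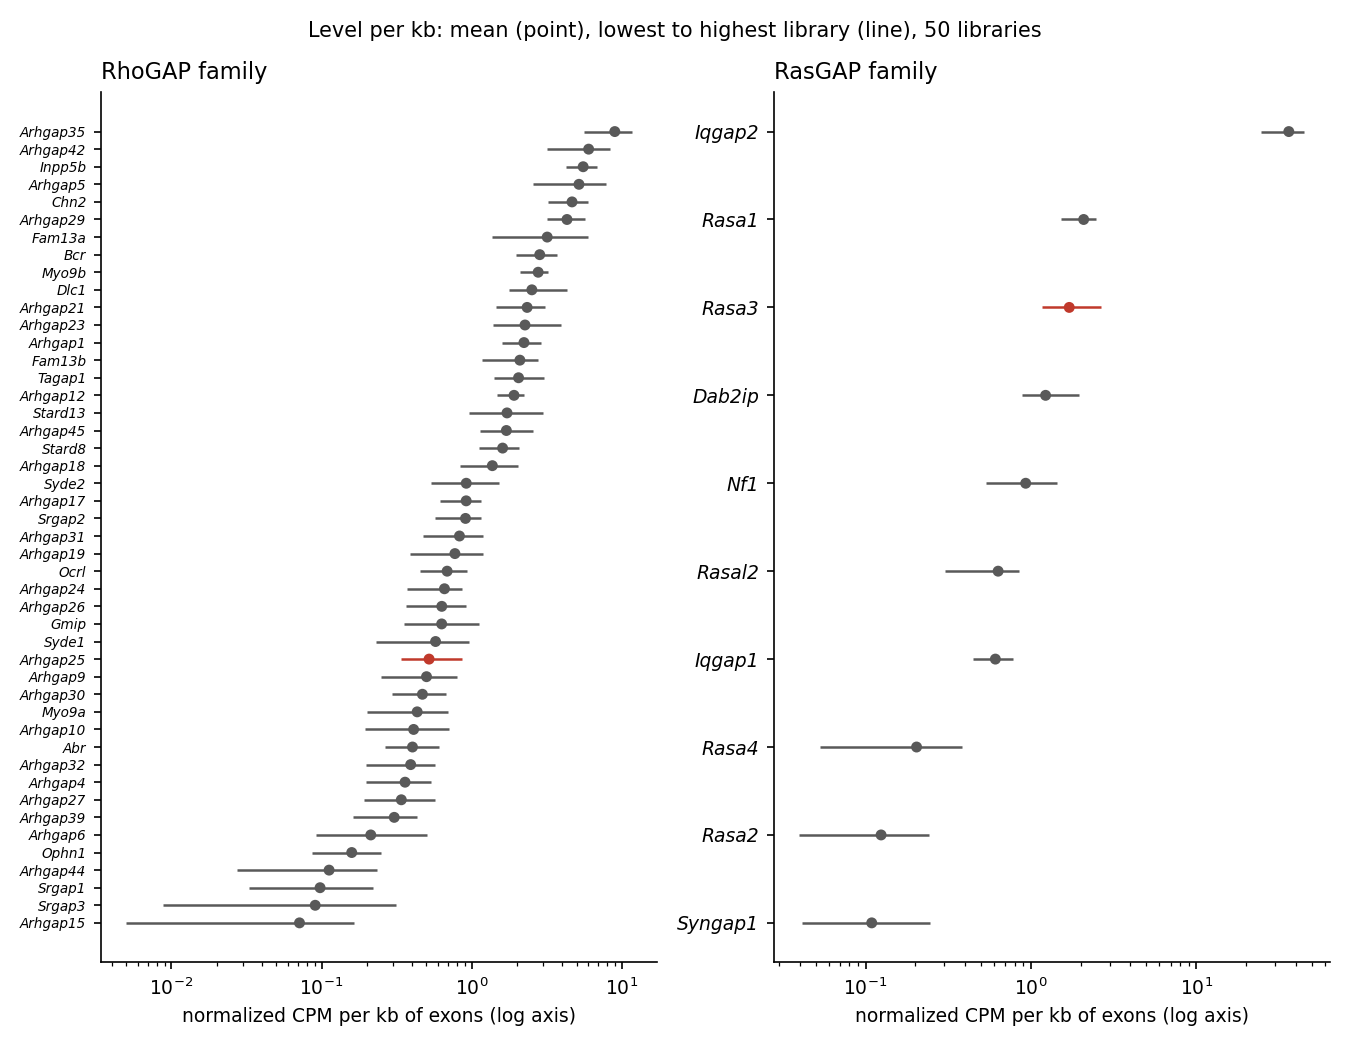
Level per kb of exons (normalized CPM per kb, log axis) of the RhoGAP family (left) and the RasGAP family (right), with the mean over 50 libraries as a point and the lowest to the highest library as a line. Arhgap25 and Rasa3 are in red, 1 RhoGAP gene is not drawn, Arhgap25 ranked 32 of 47 and Rasa3 3 of 10, and the line of Arhgap15 stops at the left where its lowest library held 0.

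The levels of Arhgap25 and Rasa3 rose together over the 50 libraries, with Pearson's r = 0.412 (permutation p = 0.00283) and Spearman's rho = 0.421 (permutation p = 0.00256), both two-sided on log2(value + 0.5). Within the libraries numbered 1 to 30, r was 0.381, and within those numbered 31 to 59 it was 0.462. Leaving out the 2 libraries farthest from the median of Arhgap25 gave r = 0.344. Library 28 was the clearest departure, with 13.3 normalized CPM of Rasa3 and 1.98 of Arhgap25. With the animal number held as a covariate, the partial r was 0.292 (permutation p = 0.0403). It was 0.288 (permutation p = 0.0426) with the male-biased sum and 0.182 (permutation p = 0.208) with the summed stellate markers.

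**Figure D3:**
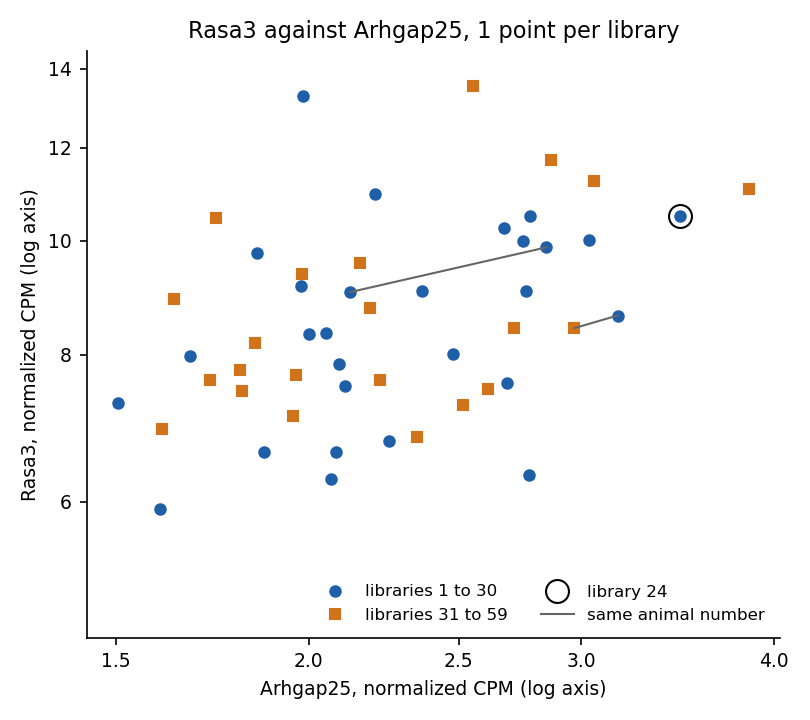
Rasa3 against Arhgap25 in normalized CPM (log axes), 1 point per library, with circles for libraries 1 to 30, squares for libraries 31 to 59, a ring around library 24 and lines joining libraries with the same animal number. The cloud slopes upward with r = 0.412, with no gap between the 2 sets.

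Genes that vary with Arhgap25 were sought by limma among 11435 genes that averaged at least 1 normalized CPM, as log2(value + 0.5). Slopes are given as the log2 change of a gene per SD of the log2 level of Arhgap25 or Rasa3, with the standard error, and p-values are Benjamini-Hochberg adjusted over all genes tested. Of these genes, 72 (0.63%) rose with Arhgap25 and 24 (0.21%) fell. Without library 24, 20 rose and 9 fell, and leaving out any 1 library gave 20 to 140 and 5 to 75. With Rasa3 as the predictor, 1053 genes (9.21%) rose and 1071 (9.37%) fell, and 944 and 942 did so without library 24. With the animal number as a covariate, 6 rose and 0 fell with Arhgap25, and 439 rose and 371 fell with Rasa3. As plain CPM, without the authors' scaling factor, 772 genes (6.75%) rose and 61 (0.533%) fell with Arhgap25, and 2127 (18.6%) rose and 668 (5.84%) fell with Rasa3. Counting error took 57.2% of the variance of Arhgap25 and 19.6% of that of Rasa3, and its part in the difference between these counts was not tested.

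The gene most like Arhgap25 was Lbh, a transcriptional cofactor gene known from limb and heart development, which ran from 3.18 over a median of 5.55 to 9.86 normalized CPM. It correlated with Arhgap25 at r = 0.65 over 50 libraries (slope 0.17 ± 0.029, limma adjusted p = 0.00299), with 0.66 and 0.64 within the 2 sets, and stayed called without library 24 (adjusted p = 0.0136). Next by r came Mpzl1 (0.60), Klf6 (0.57), Cables1 (0.56), Cstf1 (0.56) and Sod3 (0.56), followed by Laptm5, Plvap, Pdgfrb and Tnfrsf21 at 0.55 each. Klf6 is an early-response transcription factor, Sod3 the extracellular superoxide dismutase, Plvap a diaphragm protein of fenestrated endothelium and Pdgfrb the receptor of platelet-derived growth factor on stellate cells and pericytes. Laptm5, a lysosomal membrane protein of leukocytes, was the only gene of the 10 on a blood-cell list, and Pdgfrb the only one on the stellate list.

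Pdgfrb ran from 2.86 over a median of 5.05 to 7.85 normalized CPM and rose by 0.17 ± 0.037 per SD of Arhgap25 (limma adjusted p = 0.0179, and 0.0420 without library 24). Plvap ran from 11.7 over 18.4 to 37.2 and rose by 0.17 ± 0.037 (adjusted p = 0.0179, and 0.0441 without library 24). The strongest inverse relation was that of Nr1d1, the clock gene that encodes REV-ERBα, at r = -0.58. Nr1d1 ran from 11.7 over 42.6 to 99.4 normalized CPM and changed by -0.45 ± 0.087 per SD of Arhgap25 (limma adjusted p = 0.0155, and 0.0420 without library 24). With the animal number as a covariate Nr1d1 had nearly the same slope, -0.42, and was not called (limma adjusted p = 0.0728), and 18 of the 19 called genes that the naming rule gave for Arhgap25, Nr1d1 among them, lost their call. After it came 1600014C10Rik (r = -0.57), Vmo1 (-0.57), Adgra3 (-0.54) and the carboxylesterase Ces1f (-0.54). Of these 15 genes, Cables1, Tnfrsf21 and Adgra3 were no longer called without library 24, with adjusted p-values of 0.0502, 0.0539 and 0.0506.

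The genes most like Rasa3 had higher r, under a ceiling from counting error of 0.897 against 0.654 for Arhgap25. Plekhm3, Rgs12, Reck and Slc16a6 each had r = 0.74 with Rasa3, followed by Sulf2 (0.72), Synpo (0.70), Btbd8 (0.69), Bmp2k (0.69), Zfp13 (0.69) and Actg1 (0.68). None of the 10 was on a blood-cell, endothelial or stellate list. Reck is a membrane-anchored inhibitor of matrix metalloproteases, Rgs12 a GTPase-activating protein of heterotrimeric G proteins, Sulf2 a heparan sulfatase and Actg1 the cytoplasmic gamma-actin. Plekhm3 ran from 0.935 over 2.31 to 5.198 normalized CPM and rose by 0.35 ± 0.044 per SD of Rasa3 (limma adjusted p = 7.97e-07). Actg1 ran from 19.2 over 32.7 to 84.8 and rose by 0.28 ± 0.042 (adjusted p = 1.36e-05). The lowest r was that of Fbxl19 (-0.74), Etfbkmt (-0.72), Zbtb40 (-0.71), Sltm (-0.70) and D030056L22Rik (-0.69). Fbxl19, an F-box protein gene, ran from 1.43 over 2.96 to 5.23 normalized CPM and changed by -0.27 ± 0.036 per SD of Rasa3 (limma adjusted p = 1.13e-06). All 15 were called with and without library 24. Of the 45 called genes that the naming rule gave for Rasa3, 23 were still called with the animal number as a covariate.

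Under the authors' normalization and without a covariate, 1 gene of the immune and blood-cell lists rose with Arhgap25 and 1 fell with Rasa3. Immune genes outside these lists are not in this count, such as Ncf1, which fell with Rasa3 as given below. H2-Q6, a histocompatibility gene on no list and named after its value was seen, rose with Arhgap25 without library 24 (limma adjusted p = 0.0420). The 8 lists of leukocyte, Kupffer cell, neutrophil and monocyte, T and NK cell, B cell, antigen-presenting dendritic cell, platelet and erythroid markers held 68 tested genes, or 0.595% of all genes tested. Of these, 1 (Laptm5, or 1.47%) rose with Arhgap25, beside 0.63% of all genes tested, and 0 fell. With Rasa3, 0 rose, beside 9.21% of all genes tested, and 1 (Alas2, the erythroid enzyme of heme synthesis) fell, beside 9.37%. Of the 72 genes that rose with Arhgap25, 1.39% were on these lists. On the endothelial and stellate lists were 9.72% of them (7 genes), beside 0.367% of all genes tested (42 genes). The median r of the 68 genes was 0.246 with Arhgap25 and 0.121 with Rasa3, beside -0.00069 and -0.010 over all genes tested. This count depended on the scaling. As plain CPM, 4 of 22 leukocyte, 11 of 21 Kupffer cell, 2 of 5 neutrophil and monocyte, 2 of 7 dendritic cell and 4 of 6 erythroid genes rose with Arhgap25, beside 6.75% of all genes tested in that scaling, and 11 of 27 endothelial and 11 of 15 stellate genes did. With Rasa3 as plain CPM, 3 of 22 leukocyte, 3 of 21 Kupffer cell, 4 of 5 neutrophil and monocyte, 1 of 4 B cell, 1 of 7 dendritic cell and 1 of 6 erythroid genes rose, beside 18.6% of all genes tested, and 11 of 27 endothelial and 12 of 15 stellate genes did. In that scaling 1 of the 6 erythroid genes fell with Arhgap25, beside 0.533% of all genes tested, and 1 fell with Rasa3, beside 5.84%. Laptm5 ran from 12.2 over 17.2 to 22.01 normalized CPM and rose by 0.098 ± 0.022 per SD of Arhgap25 (limma adjusted p = 0.0197). It was called under 15 of 19 settings, with adjusted p-values from 0.00106 to 0.331, and was not called with the animal number, the male-biased sum or the stellate sum as a covariate, where its slope was 0.098, 0.096 and 0.11, or without the 4 libraries that share animal numbers, where it was 0.087.

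The 22 leukocyte genes, which hold the pan-leukocyte Ptprc (CD45) and the Rac partners Rac2, Vav1 and Dock2, had a median r of 0.195 with Arhgap25, positive for 19 of the 22, and 1 rose, beside 0.63% of all genes tested. Ptprc, at 6.65 ± 1.34 normalized CPM (SD, n = 50), had r = 0.14 with Arhgap25 (limma adjusted p = 0.668) and -0.05 with Rasa3 (adjusted p = 0.843). Rac2, the blood-cell Rac, had r = 0.27 (adjusted p = 0.321) and -0.08 (adjusted p = 0.740). With Rasa3, the leukocyte median r was -0.046, and 0 rose or fell, beside 9.21% and 9.37% of all genes tested. As plain CPM, 3 of the 22 rose with Rasa3, beside 18.6% of all genes tested, and the median slope was 0.028 in place of -0.010 log2 per SD. Dock2, a Rac exchange factor of leukocytes, came closest with r = 0.36 (adjusted p = 0.0511), and it rose in the fit with the animal number as a covariate.

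The 21 Kupffer cell genes had a median r of 0.337 with Arhgap25 and 0.115 with Rasa3, and 0 were called with either under the authors' normalization. Of all genes tested, 0.63% rose and 0.21% fell with Arhgap25, and 9.21% rose and 9.37% fell with Rasa3. Among the highest of them, Csf1r (the receptor of macrophage colony-stimulating factor) had r = 0.41 with Arhgap25 (limma adjusted p = 0.0994), Cd5l 0.36 (adjusted p = 0.151) and Clec4f 0.22 (adjusted p = 0.455). The smallest adjusted p of the list was that of Ctss (cathepsin S), with r = 0.43 and p = 0.0908. The 7 dendritic cell genes had a median r of 0.312 with Arhgap25 and -0.030 with Rasa3. The class II chain gene Cd74, at 37.7 ± 11.1 normalized CPM, had r = 0.38 with Arhgap25 (limma adjusted p = 0.122) and -0.01 with Rasa3 (adjusted p = 0.969).

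When the animal number was held as a covariate, the call for class II genes changed. Only 6 genes then rose with Arhgap25, and they were Lbh, Cd74, H2-Aa, H2-Ab1, H2-Eb1 and Rab7b. Cd74 rose by 0.26 per SD (limma adjusted p = 0.0151), and 4 of the 7 dendritic cell genes were called, against 0 without the covariate. In the same fit the leukocyte, endothelial and stellate lists had 0 genes called with Arhgap25.

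The remaining blood-cell lists rested on few measured genes. Of 18 neutrophil and monocyte markers 5 were in the table, with a median r of 0.297 with Arhgap25 and 0.282 with Rasa3, and 0 were called under the authors' normalization. As plain CPM, 2 of the 5 rose with Arhgap25 and 4 with Rasa3, beside 6.75% and 18.6% of all genes tested. Under the authors' normalization, 0.63% of all genes rose and 0.21% fell with Arhgap25, and 9.21% and 9.37% did with Rasa3. Spi1, which encodes PU.1, had r = 0.30 with Arhgap25 (limma adjusted p = 0.259) and 0.13 with Rasa3 (adjusted p = 0.533). Of 19 T and NK cell markers 4 were in the table and 2 were tested, with Cd3e and Trac among those not in it, and of 10 B cell markers 7 were in it and 4 tested. Of 11 platelet markers, 1 was in the table, the integrin gene Itga2b, at r = 0.28 with Arhgap25 (adjusted p = 0.285) and 0.13 with Rasa3 (adjusted p = 0.551). The platelet-defining Pf4, Ppbp and Gp9 were not in it, so platelet RNA was read through 1 gene. The 6 tested erythroid genes had a median r of 0.390 with Arhgap25 and 0 called under the authors' normalization. The globin genes Hbb-bs and Hba-a1, which belong to families of near-identical copies, had r = 0.42 (adjusted p = 0.0856) and 0.38 (adjusted p = 0.119) with Arhgap25. Alas2 had r = -0.43 (adjusted p = 0.0837), the smallest p of the list, and 4 of the 6 genes had a positive r with Arhgap25 and 5 with Rasa3. Alas2 ran from 25.3 over 57.8 to 86.3 normalized CPM and changed by -0.14 ± 0.040 per SD of Rasa3 (limma adjusted p = 0.0124), and it was called in 16 of 19 settings. The call was lost with the animal number (slope -0.086, adjusted p = 0.201), the male-biased sum (-0.041, adjusted p = 0.456) and the stellate sum (-0.063, adjusted p = 0.333) as covariates.

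Some stellate and mesenchymal genes rose with Arhgap25 or Rasa3, and most of the list did not pass the test. With Arhgap25, 5 of the 15 genes rose (Col1a2, Col3a1, Dcn, Pdgfrb and Reln), beside 0.63% of all genes tested, 0 fell, and the median r was 0.419. With Rasa3, 6 of 15 rose (Dcn, Ecm1, Hgf, Pdgfra, Pdgfrb and Reln), beside 9.21% of all genes tested, 0 fell, and the median r was 0.341. Those genes that the naming rule did not cover, Col1a2, Reln and Hgf, are named here because the counts are small. Decorin (Dcn), a small proteoglycan of the matrix, ran from 39.6 over 72.3 to 106 normalized CPM, and it rose by 0.18 ± 0.038 per SD of Arhgap25 (limma adjusted p = 0.0179) and by 0.16 ± 0.040 per SD of Rasa3 (adjusted p = 0.00503). Once the animal number was a covariate, Dcn was called with neither (slopes 0.13 and 0.099, limma adjusted p = 0.172 and 0.135), nor was it with the male-biased sum (0.242 and 0.102). The fibrillar collagen gene Col3a1 rose by 0.26 ± 0.062 with Arhgap25 (adjusted p = 0.0282), and its slope with Rasa3 was 0.14 ± 0.069 (adjusted p = 0.144). Without library 24, 3 of the 15 rose with Arhgap25 (Col1a2, Dcn and Pdgfrb) and 5 with Rasa3. At a given animal number, 0 rose with Arhgap25 and 1 (Pdgfra) with Rasa3, beside 6 and 439 of all 11435 genes tested.

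Sinusoidal endothelial genes gave 2 of 27 that rose with Arhgap25, Lyve1 and Stab1, beside 0.63% of all genes tested, and 0 that fell, with a median r of 0.159. With Rasa3, 4 rose (Eng, Kdr, Stab1 and Stab2), 1 fell (Gpr182), and the median r was 0.223. The count of risers is near the 9.21% of all genes tested, beside 9.37% that fell. As plain CPM, 11 of the 27 rose with Rasa3 and 0 fell, beside 18.6% and 5.84% of all genes tested. At a given animal number, 3 rose with Rasa3 (Kdr, Stab1 and Stab2), and Gpr182 fell, beside 439 that rose and 371 that fell of all 11435 genes tested. Stab1, a scavenger receptor of sinusoidal endothelium, ran from 30.6 over 42.5 to 57.2 normalized CPM. It rose by 0.14 ± 0.023 per SD of Rasa3 (limma adjusted p = 6.73e-05, called in 19 of 19 settings) and by 0.10 ± 0.027 per SD of Arhgap25 (adjusted p = 0.0433). The call of Stab1 with Arhgap25 was lost in 6 settings, among them without library 24 (slope 0.10, adjusted p = 0.0808), with the animal number (0.075, adjusted p = 0.335) and with the stellate sum (0.032, adjusted p = 1). Kdr, the main receptor of vascular endothelial growth factor, rose by 0.12 ± 0.028 with Rasa3 (adjusted p = 0.00261), while its slope with Arhgap25 was 0.055 ± 0.031 (adjusted p = 0.375). Lyve1, a hyaluronan receptor, rose by 0.23 ± 0.052 with Arhgap25 (adjusted p = 0.0198), was not called with the animal number (slope 0.20, adjusted p = 0.160), the male-biased sum (0.17, adjusted p = 0.272) or the stellate sum (0.075, adjusted p = 1), and its slope with Rasa3 was 0.091 ± 0.060 (adjusted p = 0.291). The differences between the slopes of both predictors, taken with both in 1 fit, did not pass the test for any gene of these lists.

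Summed levels of 16 marker lists were correlated with each gene as 32 relations, with p-values adjusted over them, and r was repeated within the libraries numbered 1 to 30 and 31 to 59 and without the 2 libraries farthest from the median sum. Of these, 10 relations of Arhgap25 and 7 of Rasa3 passed. With the animal number as a covariate 4 of the 10 still passed, those with the stellate, Kupffer cell, neutrophil and dendritic cell sums, and 0 of the 7. Without library 24 these counts were 5 and 4. They were 3 and 0 with the male-biased sum as a covariate, and 1 (the dendritic cell sum) and 0 with the stellate sum. The sum that is held cannot itself pass in such a fit. The strongest relation was that of Arhgap25 with the stellate and mesenchymal sum, which ran from 164 over 261.3 to 398 normalized CPM. It had r = 0.604 (permutation p = 2e-05, adjusted p = 0.00064) and rho = 0.565 (permutation p = 3e-05), with r = 0.645 and 0.590 within the sets and 0.547 without the 2 farthest libraries. For Rasa3 this sum gave r = 0.471 (permutation p = 0.00054, adjusted p = 0.00864) and rho = 0.505 (permutation p = 0.0002), with r = 0.483 and 0.543 within the sets and 0.473 without the 2 farthest libraries. The relation of Rasa3 did not pass with the animal number (r = 0.2998, permutation adjusted p = 0.097) or the male-biased sum (0.282, adjusted p = 0.199) as a covariate. The leukocyte sum ran from 153 over 187 to 228 normalized CPM and, under the authors' normalization, did not pass the threshold with either gene. As plain CPM its r with Arhgap25 was 0.344 and passed (permutation adjusted p = 0.0235). With normalized CPM it gave r = 0.155 (permutation p = 0.281, adjusted p = 0.346) and rho = 0.114 (permutation p = 0.43), with r = 0.150 and 0.209 within the sets and 0.027 without the 2 farthest libraries. With Rasa3 it gave r = -0.096 (permutation p = 0.507, adjusted p = 0.559) and rho = -0.085 (permutation p = 0.558), with r = -0.224 and 0.071 within the sets and -0.210 without the 2 farthest libraries.

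Without a covariate, sums of myeloid genes followed Arhgap25. The Kupffer cell sum, from 636 to 1063 normalized CPM, had r = 0.4002 (permutation p = 0.00419, adjusted p = 0.0217) and rho = 0.389 (permutation p = 0.00534), with r = 0.321 and 0.485 within the sets and 0.343 without the 2 farthest libraries. With Rasa3 it had r = 0.060 (permutation p = 0.679, adjusted p = 0.701) and rho = 0.038 (permutation p = 0.795). For the dendritic cell sum, led by class II genes, Arhgap25 had r = 0.368 (permutation p = 0.00826, adjusted p = 0.024) and rho = 0.326 (permutation p = 0.0213), with r = 0.376 and 0.372 within the sets and 0.396 without the 2 farthest libraries. Rasa3 had r = -0.022 (permutation p = 0.88, adjusted p = 0.88) and rho = -4.8e-05 (permutation p = 1) with this sum. The neutrophil and monocyte sum, of 5 genes, gave r = 0.442 (permutation p = 0.0013, adjusted p = 0.0104) and rho = 0.437 (permutation p = 0.00176), with r = 0.472 and 0.414 within the sets and 0.427 without the 2 farthest libraries with Arhgap25. With Rasa3 the values were r = 0.348 (permutation p = 0.0131, adjusted p = 0.0299) and rho = 0.3997 (permutation p = 0.00435), with r = 0.344 and 0.433 within the sets and 0.340 without the 2 farthest libraries. For Arhgap25 the neutrophil sum did not pass with the male-biased or the stellate sum as a covariate, nor did the Kupffer cell sum with the stellate sum. For Rasa3 the neutrophil sum was lost with the animal number, the male-biased sum or the stellate sum as a covariate, and without library 24. A permutation that swapped the labels of Arhgap25 and Rasa3 gave adjusted p-values of 0.153 for the Kupffer cell and 0.162 for the dendritic cell sum, so r was not shown to differ between the pair for these sums.

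The endothelial sum moved with both genes when no covariate was held. With the animal number as a covariate, r was 0.315 for Arhgap25 and 0.311 for Rasa3 and neither passed (permutation adjusted p = 0.0945 for each), nor did they with the stellate sum (adjusted p = 0.87 and 0.57) or the male-biased sum (0.221 and 0.249). Without a covariate it had r = 0.376 (permutation p = 0.0066, adjusted p = 0.0217) and rho = 0.308 (permutation p = 0.0298), with r = 0.452 and 0.357 within the sets and 0.270 without the 2 farthest libraries for Arhgap25. For Rasa3 it had r = 0.379 (permutation p = 0.00678, adjusted p = 0.0217) and rho = 0.398 (permutation p = 0.00447), with r = 0.219 and 0.555 within the sets and 0.378 without the 2 farthest libraries. The erythroid sum gave r = 0.342 (permutation p = 0.0146, adjusted p = 0.0311) and rho = 0.317 (permutation p = 0.0246), with r = 0.386 and 0.284 within the sets and 0.364 without the 2 farthest libraries with Arhgap25. By rank, adjusted permutation p-values were 0.0596 for Arhgap25 with the endothelial sum and 0.0525 with the erythroid sum, and these did not pass. The erythroid relation of Arhgap25 was also lost without library 24 and with the animal number as a covariate. The erythroid r with Rasa3 was 0.119 (permutation p = 0.411, adjusted p = 0.470). The platelet, T and NK cell and B cell sums did not pass the threshold with either gene, with adjusted permutation p-values of 0.0896 or more.

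**Figure D4:**
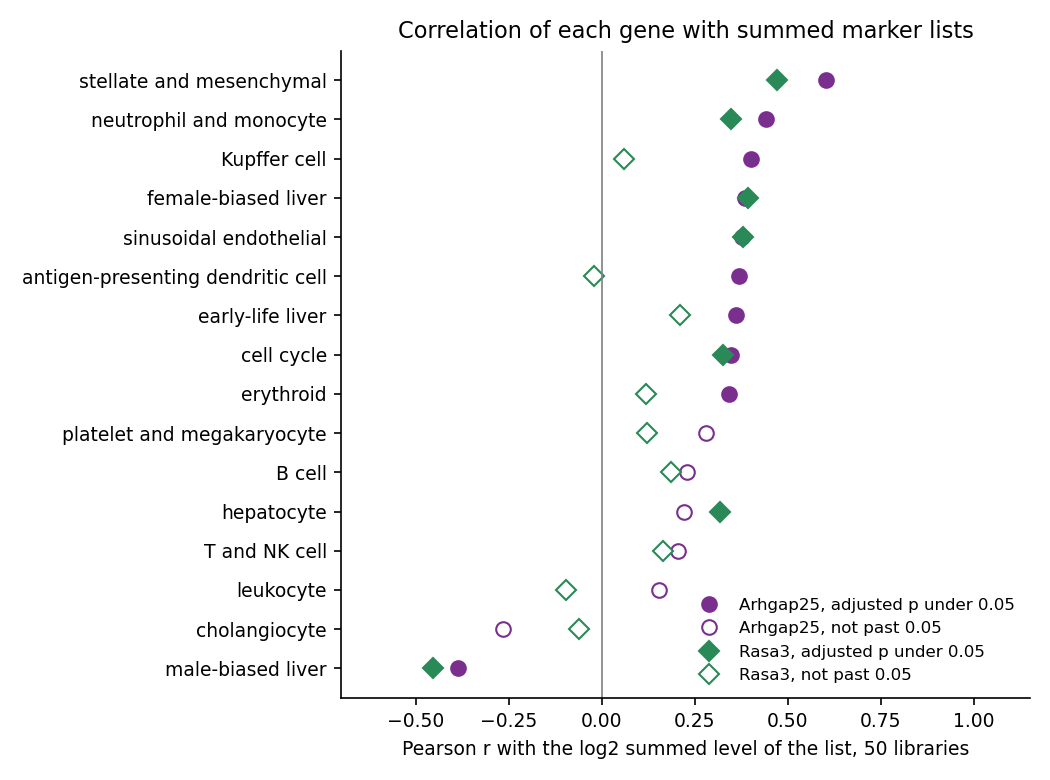
Pearson r of Arhgap25 (circles) and Rasa3 (diamonds) with the log2 summed level of each marker list over 50 libraries, filled where the permutation p adjusted over 32 relations was under 0.05. Both genes stand furthest right for the stellate and mesenchymal sum (0.604 and 0.471), and neither is filled for the leukocyte sum, whose r with Arhgap25 was 0.344 and passed as plain CPM.

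**Figure D5:**
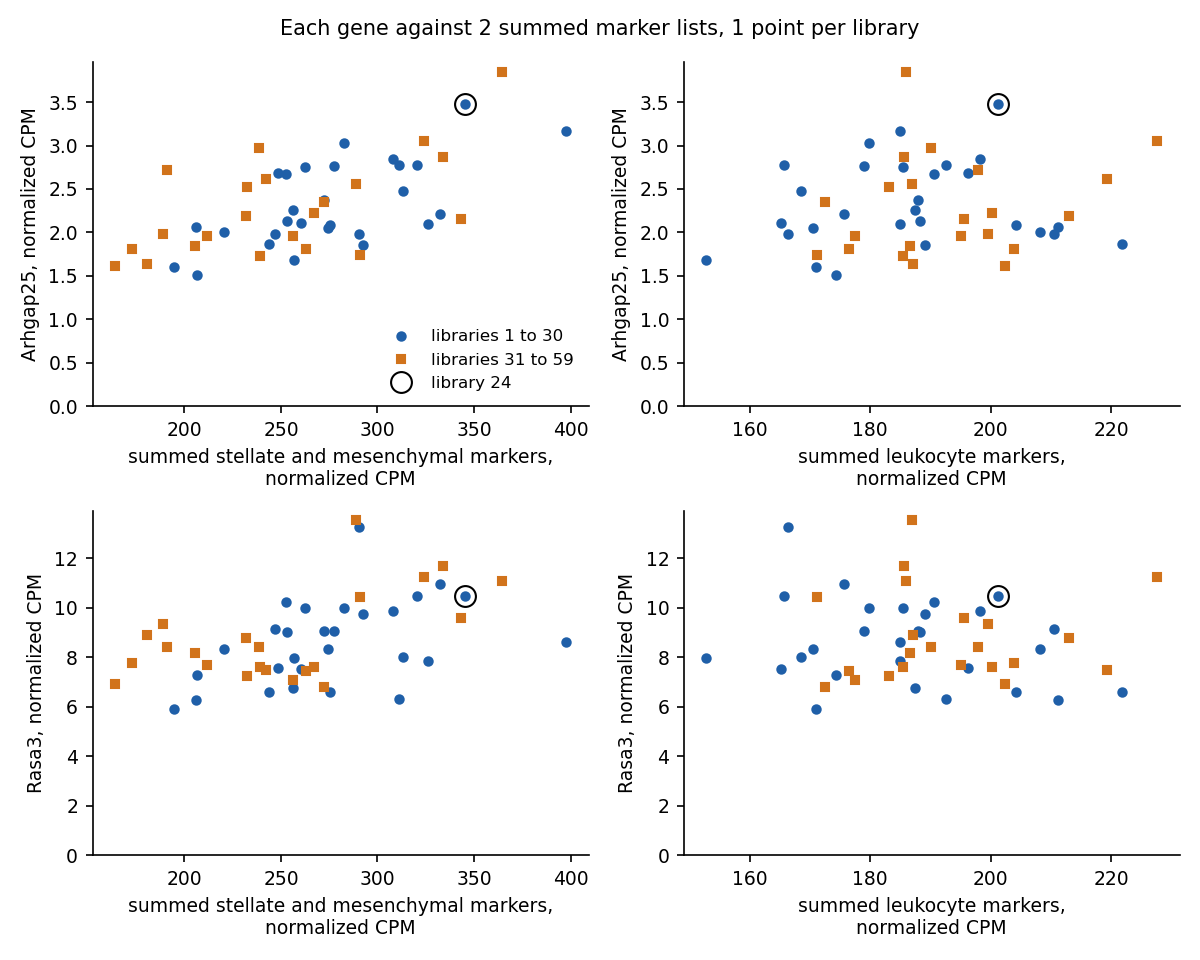
Level of Arhgap25 (top) and Rasa3 (bottom) against the summed stellate and mesenchymal markers (left) and the summed leukocyte markers (right), all in normalized CPM, 1 point per library, with library 24 ringed. The points slope upward on the left (r = 0.604 and 0.471) and show little slope on the right (r = 0.155 and -0.096).

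Some genes with sex-biased levels in liver were called with Rasa3, although every mouse was described as male. The methods state that QTL scans were run both with sex as a covariate and without it. The paper also compared traits between male and female mice of the cross, so its cross held both sexes. Its text does not state the sex of the mice whose liver RNA was sequenced. Of 12 male-biased genes 9 fell with Rasa3, beside 9.37% of all genes tested, and 0 rose. Of 6 tested female-biased genes 3 rose, among them Cyp2b10 and Cyp2b9, beside 9.21%, and 0 fell. With Arhgap25, 0 of either list were called, while as plain CPM 4 male-biased genes fell, beside 0.533% of all genes tested, and 2 female-biased genes rose, beside 6.75%. Hsd3b5, a male-biased steroid dehydrogenase gene, ran from 0.459 over 5.44 to 46.4 normalized CPM and changed by -0.66 ± 0.15 per SD of Rasa3 (limma adjusted p = 0.00206). Mup20, a male pheromone protein gene of a family with near-identical copies, changed by -0.53 ± 0.12 (adjusted p = 0.00179). Without library 24, 6 male-biased genes fell with Rasa3 and 1 female-biased gene rose, and with the animal number as a covariate 0 of either list were called. In that last fit 439 of all 11435 genes tested rose with Rasa3 and 371 fell.

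The male-biased sum ran from 597 to 6450 normalized CPM. With Rasa3 it had r = -0.454 (permutation p = 0.00088, adjusted p = 0.00939) and rho = -0.507 (permutation p = 0.0003), with r = -0.485 and -0.447 within the sets and -0.406 without the 2 farthest libraries. With Arhgap25 it had r = -0.387 (permutation p = 0.00548, adjusted p = 0.0217) and rho = -0.365 (permutation p = 0.00939), with r = -0.455 and -0.290 within the sets and -0.315 without the 2 farthest libraries. The male-biased relation of Arhgap25 did not pass without library 24, and with the animal number as a covariate neither gene's did. The female-biased sum gave r = 0.392 (permutation p = 0.00486, adjusted p = 0.0217) and rho = 0.456 (permutation p = 0.00103), with r = 0.377 and 0.471 within the sets and 0.382 without the 2 farthest libraries for Rasa3. For Arhgap25 the female-biased sum gave r = 0.385 (permutation p = 0.00573, adjusted p = 0.0217) and rho = 0.370 (permutation p = 0.00796), with r = 0.383 and 0.390 within the sets and 0.253 without the 2 farthest libraries. The female-biased relation of Arhgap25 was also lost without library 24, and that of both genes with the animal number as a covariate. Relations with the remaining lists were weaker. The cell cycle sum had r = 0.347 (permutation p = 0.013, adjusted p = 0.0299) and rho = 0.396 (permutation p = 0.00458) with Arhgap25 and r = 0.327 (permutation p = 0.02, adjusted p = 0.04) and rho = 0.303 (permutation p = 0.0328, adjusted p = 0.0617, which did not pass) with Rasa3. The early-life sum had r = 0.360 (permutation p = 0.0104, adjusted p = 0.0277) and rho = 0.375 (permutation p = 0.008) with Arhgap25, and the hepatocyte sum had r = 0.318 (permutation p = 0.0241, adjusted p = 0.0454) and rho = 0.365 (permutation p = 0.00901) with Rasa3. None of these cell cycle, early-life and hepatocyte relations passed without library 24 or with the animal number as a covariate. Library 24 held the highest early-life sum, 17.7 normalized CPM against a median of 2.04. Of the hepatocyte genes, Alb rose with Rasa3 (limma adjusted p = 0.0484, and 0.0611 without library 24), while Pck1 (gluconeogenesis, adjusted p = 0.00531) and Hnf4a (a hepatocyte transcription factor, adjusted p = 0.0133) fell. Of 6 tested cell cycle genes, Mcm2 rose with Rasa3 (adjusted p = 0.0162), and 0 of these 6, of 4 cholangiocyte genes and of 10 hepatocyte genes were called with Arhgap25. The 1 tested early-life gene, H19, and the 4 cholangiocyte genes were not called with either gene. At a given animal number, 0 of the hepatocyte and cell cycle genes were called with Rasa3, beside 439 that rose and 371 that fell of all 11435 genes tested.

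Of the other RhoGAP genes, 0 of 42 tested were called with Arhgap25 (median r 0.056), and 4 rose as plain CPM, beside 6.75% of all genes tested. With Rasa3, 3 of 43 rose and 7 fell (median r -0.105), beside 9.21% and 9.37% of all genes tested. Ocrl, an inositol phosphatase with a RhoGAP domain (r = 0.53), Abr (0.38) and Arhgap25 itself (0.41, limma adjusted p = 0.0212, and 0.0369 without library 24) rose. Stard13 (-0.60), Arhgap42 (-0.60), Bcr (-0.49), Fam13a (-0.49), Arhgap26 (-0.42) and Arhgap19 (-0.40) were among those that fell. Arhgap42, a RhoA regulator of smooth muscle, ran from 23.1 over 43.8 to 60.7 normalized CPM and changed by -0.21 ± 0.040 per SD of Rasa3 (adjusted p = 0.00027). Of 9 tested RasGAP genes 0 were called with Arhgap25, and of the 8 others 1 was called with Rasa3. This was Nf1, which fell (r = -0.36, adjusted p = 0.0456, and 0.0558 without library 24), while Rasa1 had r = -0.01 (adjusted p = 0.972). In the fit with the animal number, 1 RhoGAP gene rose with Rasa3 (Ocrl), 3 fell (Stard13, Arhgap42 and Fam13a), and 0 RasGAP genes were called. Of all 11435 genes tested, 439 rose with Rasa3 in that fit and 371 fell.

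The pathways on which both proteins act were described from lists of their partners. Of 23 Rac pathway and phagocyte oxidase genes, 0 were called with Arhgap25 (median r 0.108, and 3 rose as plain CPM, beside 6.75% of all genes tested), and Rac1, its substrate, had r = -0.12 (limma adjusted p = 0.792). Cyba and Dock8, with the smallest adjusted p-values of this list for Arhgap25, had r = 0.37 (adjusted p = 0.140) and -0.32 (adjusted p = 0.215). With Rasa3, 1 of the 23 fell, the oxidase subunit gene Ncf1, which had r = -0.45 (adjusted p = 0.0109), beside 9.37% of all genes tested. Of 30 Rap1, R-Ras and integrin genes, 0 were called with Arhgap25, and 4 rose as plain CPM, beside 6.75% of all genes tested. With Rasa3, 0 rose, beside 9.21% of all genes tested, and 5 fell, beside 9.37%. They were the Rap1 regulators Sipa1 (a Rap GTPase-activating protein, r = -0.49, adjusted p = 0.00531), Rapgef2 (an exchange factor, -0.47, adjusted p = 0.00642) and Rapgef4 (Epac2, -0.42, adjusted p = 0.0171), and the small GTPase genes Hras and Rap2a. Of these 5, Hras and Rap2a lie outside the naming rule. The substrates themselves were not called, with r = -0.09 for Rap1a (adjusted p = 0.717), 0.08 for Rap1b (adjusted p = 0.768) and -0.16 for Rras (adjusted p = 0.460). In the fit with the animal number as a covariate, Sipa1 was the 1 gene of the Rap1, R-Ras and integrin list called with Rasa3, Ncf1 was not called, and Dock2 rose. Of all 11435 genes tested, 439 rose with Rasa3 in that fit and 371 fell.

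With both genes in 1 fit, 0 of 11434 genes (0.0%) were called for Arhgap25 at a given level of Rasa3 by limma, with 926 at an unadjusted p under 0.05 and a lowest adjusted p of 0.208. The quasi-likelihood test of edgeR also called 0, with 881 at an unadjusted p under 0.05. For Rasa3 at a given level of Arhgap25, 1270 genes (11.1%) were called by limma, and 620 with the animal number as a covariate. Counting error took 57.2% of the variance of Arhgap25 and 19.6% of that of Rasa3, and its part in the counts of this joint fit was not tested. The 0 calls therefore do not show that no gene varies with Arhgap25 apart from Rasa3. In this joint fit the slopes of Arhgap25 and Rasa3 differed for 5 genes (0.0437%), named here after their values were seen with their joint slopes. Leaving out 1 library gave 1 to 16 such genes, with a move of over 1.5 times for 11 libraries. Btbd8 (joint slope 0.40 with Rasa3 and -0.094 with Arhgap25, limma adjusted p of the difference 0.0181) and the pantothenate kinase gene Pank1 (0.17 and -0.072, adjusted p = 0.00649) rose with Rasa3. Dcps (-0.17 and 0.071, adjusted p = 0.0264), Rabggtb (-0.15 and 0.044, adjusted p = 0.0181) and Utp18 (-0.11 and 0.085, adjusted p = 0.0434) fell with Rasa3 by limma. None of the 5 was called with Arhgap25, and none was on a marker list.

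Genes near both members on their chromosomes were described by the same counts. Of 97 tested genes within 5 Mb of Arhgap25, 0 were called with it by limma, beside 0.63% that rose and 0.21% that fell of all genes tested. The lowest limma adjusted p of the 97 was 0.0714 for Wbp1 (r = -0.45), and the median r was -0.059. Over the whole of chromosome 6, 4 of 574 genes rose and 0 fell, beside 0.63% and 0.21% of all genes tested. Within 5 Mb of Rasa3, 6 of 41 genes rose with it and 6 fell, beside 9.21% and 9.37% of all genes tested, and the median r was -0.012. The extremes, named after their values were seen, were Arhgef7 (the Rac and Cdc42 exchange factor beta-PIX, r = 0.66, limma adjusted p = 3.77e-05) and Dcun1d2 (-0.62, adjusted p = 0.000175). Over chromosome 8, 59 of 632 genes rose and 66 fell, beside 9.21% and 9.37% of all genes tested.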

How the data were processed

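RNA of livers described as male was sequenced by the study as 50 stranded TruSeq libraries. Per the labels, the authors used FastQC, Trim Galore, HISAT2, HTSeq 0.11.1 and edgeR with GRCm38.p5. The strand setting of the counting is not given in the sources used here. The deposited values are a normalized signal per gene, CPM with a scaled library size, and columns sum to 886171 to 1120647. Dividing each column by the value of 1 read gave whole reads within 0.01 for 100% of values, and on these reads edgeR called 95 genes for Arhgap25 and 2112 for Rasa3. The table holds 12185 genes, and 0 columns belong to no sample.

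Python 3.11.15, R 4.3.3 and limma 3.58.1 were used on log2(value + 0.5), with a mean of at least 1 as the filter and an adjusted p of 0.05 as the threshold. With edgeR 4.0.16 and DESeq2 1.42.0 size factors, other scalings, pseudocounts, filters, covariates and left-out libraries as alternatives, the same tables were computed again. Correlations were tested by 100000 permutations, two-sided. Exon lengths and positions came from GENCODE M21 and promoters from RefSeq. Tested on simulated data for the genes related to Arhgap25 (11436 genes), limma recovered 34 of 100 genes with a slope of 0.1 and 85 of 100 with a slope of 0.2, and called 9 others. Depth sets the precision, and the counting errors given cover counting only. The members and the marker lists were chosen with earlier results of these data known. Named were, for each gene, the 10 highest and 5 lowest r, in each list up to 4 genes by level and up to 2 by smallest adjusted p, and each RhoGAP or RasGAP gene called. Lists were described by counts and medians, without a set test. Values of 2 genes counted in these lists are not reported here.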

Additional observations from a re-analysis of the deposited data

How the results depend on the processing

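No paired analysis was possible because the libraries form 1 group. DESeq2 size factors, edgeR, other pseudocounts, ranks of the predictor, no filter, and the library set or the counted reads as covariates kept the counts of genes rising and falling with Arhgap25 and with Rasa3 within 1.5 times. The alternatives with the stellate sum, the male-biased sum, and library set and counted reads together as covariates were chosen after seeing the data, as were the gene counts without each library in turn. The 72 genes that rose and 24 that fell with Arhgap25 became 6 and 0 with the animal number as covariate, 170 and 106 with the leukocyte sum, 30 and 10 with the share of the 10 highest genes, 1 and 0 with the male-biased sum, 1 and 0 with the stellate sum, 20 and 9 without library 24, and 772 and 61 as plain CPM, and 45 rose at a mean of at least 5. Of the 96 genes, 2 were among those called with the animal number, 29 of the 29 called without library 24 were, and none was with the stellate sum. Leaving out 1 library gave 20 to 140 risers and 5 to 75 fallers. The riser count moved by over 1.5 times without library 4 (20), 8 (140), 15 (close to the 116 of library 38), 22 (44), 24 (20), 25 (45), 32 (35), 33 (45), 36 (39), 38 (116), 49 (41) or 56 (23), and the faller count without library 4 (5), 8 (75), 12 (13), 15 (60), 17 (15), 22 (10), 24 (9), 25 (9), 28 (40), 29 (48), 30 (12), 32 (8), 33 (11), 35 (10), 36 (10), 38 (46), 40 (12), 42 (15), 46 (11), 49 (10), 56 (6), 59 (42). For Rasa3 leaving out 1 library moved neither count by that much (882 to 1121 and 832 to 1155). The 1053 and 1071 genes of Rasa3 became 439 and 371 with the animal number, 663 and 552 with the male-biased sum, 528 and 460 with the stellate sum, and 2127 and 668 as plain CPM, which moved the share of risers among the calls. Plain CPM shifted the median slope of all genes by 0.027 for Arhgap25 and 0.023 for Rasa3. For Rasa3 at a given level of Arhgap25, 620 genes were called with the animal number. The 5 genes with differing slopes became 3 with library set and counted reads, 9 with the male-biased sum, 8 with the stellate sum, 8 without the shared animal numbers, and 1 to 16 without 1 library, with a move of over 1.5 times without library 1 (3), 6 (16), 15 (3), 21 (3), 22 (3), 33 (10), 37 (3), 42 (8), 46 (2), 50 (9), 59 (1). The r of Arhgap25 with Rasa3 was 0.182 (permutation p = 0.208) with the stellate sum as covariate, 0.292 (permutation p = 0.0403) with the animal number, 0.288 (permutation p = 0.0426) with the male-biased sum, and 0.374 to 0.469 without 1 library. As plain CPM, r of Arhgap25 with the leukocyte sum was 0.344 (permutation adjusted p = 0.0235), and in that scaling 11 of 21 Kupffer cell, 11 of 27 endothelial, 11 of 15 stellate and 4 of 22 leukocyte genes rose with Arhgap25. The r with the endothelial sum was 0.315 for Arhgap25 and 0.311 for Rasa3 with the animal number, 0.106 and 0.187 with the stellate sum, and 0.265 and 0.247 with the male-biased sum, and for Arhgap25 0.323 without the shared animal numbers and 0.308 as ranks, and none of these passed. The r of Rasa3 with the stellate sum was 0.2998 with the animal number and 0.282 with the male-biased sum and passed with neither (adjusted permutation p = 0.097 and 0.199), and that of Arhgap25 with the Kupffer cell sum was 0.395 with the stellate sum (adjusted permutation p = 0.0636). The sign turned for Arhgap25 with the female-biased sum at a given stellate sum (-0.044) and for Rasa3 with it at a given male-biased sum (-0.0064). The causes were not tested. Depth limits Arhgap25 most, with 18 to 73 reads per library.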

Other observations

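Of the genes outside the marker lists that rose with Arhgap25, 4 are named here after their values were seen, with no list behind them. Sparc, a collagen-binding matrix protein, ran from 54.7 over 107 to 208 normalized CPM and rose by 0.22 ± 0.048 per SD of Arhgap25 (limma adjusted p = 0.0179, and 0.0502 without library 24), with a slope of 0.14 ± 0.054 with Rasa3 (adjusted p = 0.0679). Col14a1, a fibril-associated collagen, rose by 0.19 ± 0.041 with Arhgap25 (adjusted p = 0.0179, and 0.0441 without library 24) and by 0.13 ± 0.045 with Rasa3 (adjusted p = 0.0373). The metal-binding metallothionein genes Mt1 and Mt2 rose by 0.28 ± 0.064 (adjusted p = 0.0231) and 0.29 ± 0.078 (adjusted p = 0.0490) with Arhgap25, and by 0.27 ± 0.065 (adjusted p = 0.00266) and 0.40 ± 0.068 (adjusted p = 7.01e-05) with Rasa3. Without library 24 the adjusted p with Arhgap25 was 0.0533 for Mt1 and 0.109 for Mt2, so these calls and that of Sparc were lost. With the animal number as a covariate, none of Sparc, Col14a1, Mt1 and Mt2 was called with Arhgap25. Mt1 ran from 95.9 over 241 to 470 normalized CPM and Mt2 from 80.7 over 194.2 to 477.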
